A study of Mus musculus with 157 samples.

Results

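Livers of 57 male mice from the pre-Collaborative Cross were compared by the date on which the mice were killed. Kill cohort 1 held 20 mice, killed in late May on days 0 and 1 of the study, and kill cohort 7 held 37 mice, killed in mid-November on days 168, 169 and 170. They were chosen by the kill date in the labels out of 157 mice in 10 kill cohorts, in which dates at most 3 days apart were joined. Each mouse came from a different partly inbred strain descended from the same 8 founders (WSB/Ei, PWK/Ph, NZO/H1LtJ, NOD/LtJ, CAST/Ei, C57BL/6J, A/J and 129S1/SvImJ), so no strain lies on both sides of the comparison. Every mouse was fed standard chow, shipped as a young adult, taken through a programme with alcohol exposure and exercise, and killed at 12 to 15 weeks of age. The labels do not tell which mouse received which part of that programme, and both cohorts went through it.

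The liver handles incoming nutrients, makes most plasma proteins and lipoproteins, and clears alcohol and other foreign compounds. Many of its transcripts are known to follow feeding, the time of day, hormones and the genotype of the mouse. In a cross of this kind each strain carries its own mosaic of founder alleles, so mice of different strains differ in many liver transcripts before any treatment. A transcript of whole liver can be lower because a cell type is rarer or because each cell holds less RNA of it, and these cannot be told apart here.

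Cohort and strain number were almost inseparable. Strains were put into blocks of 1000 numbers each, counted from block 0 for the numbers under 1000. The strain numbers of cohort 1 ran from 41 to 4445, with 14 mice in block 0, 3 in block 2 and 3 in block 4. Those of cohort 7 ran from 79 to 5546, with 20 mice in block 3, 14 in block 5, 2 in block 0 and 1 in block 4. Blocks 0 and 4 were the only ones on both sides, with 17 mice of cohort 1 against 3 of cohort 7. The labels do not say what a block stands for. The arrays were spread over 8 hybridization batches, of which 7 held both cohorts, while batch 6 held 5 arrays of cohort 7 and none of cohort 1. Of the cohort 1 arrays 9 of 20 lay in slot 4 of the fluidic station, against 10 of 37 in cohort 7.

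Liver transcripts were called different between the cohorts in both directions, and the called ones more often had a lower score in the later mice. Of 23176 genes, 810 (3.49%) were called, 231 (0.997%) higher and 579 (2.5%) lower in cohort 7 (limma with hybridization batch as covariate, adjusted p under 0.05). Each value is a score that ranks the 157 mice for that gene on a normal scale from -2.49 to 2.49. A difference of 1 is about 1 SD of a gene over all mice, and no expression level or fold change can be read from it. The median difference was 0.912 score units in the genes called higher and -0.96 in those called lower, against 0.0756 over all genes. Of all 23176 genes, 13184 had a positive difference, so the lean towards lower scores was seen in the called genes and not over all genes. With each array centred on its median score, 172 genes were called higher and 805 lower. Before adjustment, 4678 genes had a p under 0.05.

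The count of called genes changed with the mice included, while the median differences of the genes called in the main fit moved less. Those genes were chosen for large differences in mostly the same mice, so their medians are a description and not a test of stability. Without the second kill day of cohort 1 (11 mice), limma called 10 genes, and without the first (9 mice) it called 662. Without day 169 of cohort 7 the count was 153, without day 170 it was 397, and without day 168 it was 1077. Leaving out hybridization batch 5, 2, 1, 8 or 3 gave 187, 206, 283, 434 and 446 genes, and leaving out batch 7, 4 or 6 gave 768, 815 and 1045. Without the second kill day of cohort 1, the median difference was 0.838 in the 231 genes called higher and -0.889 in the 579 called lower, and the median SE was 0.363 in place of 0.271. Without batch 5 these medians were 0.91 and -0.94, and the median SE was 0.299. Fluidic station and slot as further covariates left 528 genes. With strain-number block as a covariate limma called 3 genes, and the median SE of a difference was 0.417 score units. The median difference under that covariate was 0.93 in the 231 genes called higher and -1.04 in the 579 called lower. Kill cohort and strain block therefore cannot be told apart for most of these genes.

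**Figure D1:**
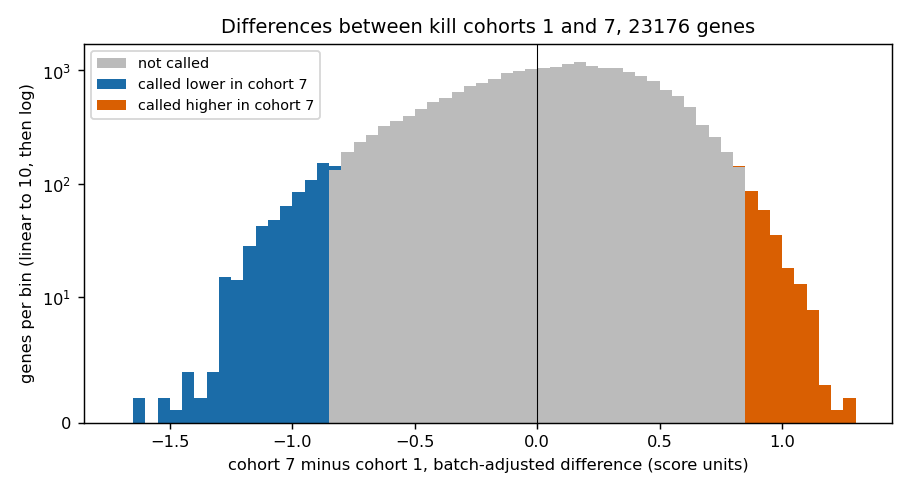
Histogram of the batch-adjusted difference between cohort 7 and cohort 1 for 23176 genes, in score units, with a count axis that is linear to 10 and logarithmic above. The 579 genes called lower in cohort 7 reach -1.65, and the 231 called higher reach 1.27.

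Differences were moderate in size for nearly all called genes. Among the genes called higher, 185 differed by 0.8 to 1 score units, 43 by 1 to 1.2 and 3 by more, with a largest value of 1.27. Among those called lower, 354 differed by 0.8 to 1, 181 by 1 to 1.2, 40 by 1.2 to 1.5 and 4 by more than 1.5. The smallest called difference was 0.846, since nearly the same spread was used for every gene (SE 0.269 to 0.275). The called genes are thus those with the largest differences, not those with the least spread.

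No called gene separated the cohorts. Over the 740 pairs made of 1 mouse from each cohort, the cohort 7 mouse had the higher score in a median of 75.3% of pairs for the genes called higher (range 66.0% to 88.2%). For the genes called lower, it had the higher score in a median of 22.0% of pairs (range 7.64% to 31.9%). Over all genes the median was 51.8%. The ranges of the 2 cohorts overlapped for all 810 called genes, as they did for each of the 23176 genes tested. For 23 of the genes called lower and 4 of those called higher, the median of cohort 7 lay beyond every mouse of cohort 1. Over all genes this held for 30. The median of cohort 1 lay beyond every mouse of cohort 7 for 13 of the genes called lower and 3 of those called higher, against 16 over all genes.

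The spread within a cohort was about the same on both sides. The median SD of a gene was 0.883 in cohort 1 and 0.855 in cohort 7 for the genes called lower, 0.902 and 0.88 for those called higher, and 0.941 and 0.937 over all genes. The SD was the smaller one in cohort 1 for 42.7% of the genes called lower and 49.4% of those called higher, against 48.9% of all genes. Ranks show only part of a change in spread.

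No table used here pairs the Ensembl identifiers with symbols, gene types or positions, so gene functions, cell type markers and sequences are not described. The 2 identifiers with the smallest p in each direction are given in full. The 4 of them were chosen by these values from all genes, and the descriptions of their mice below are not a further test.

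ENSMUSG00000065412 had the largest difference of all genes and was lower in cohort 7. Its scores ran from -1.31 over a median of 0.844 to 2.24 in the 20 mice of cohort 1. In the 37 mice of cohort 7 they ran from -2.49 over a median of -0.833 to 0.705. All 37 mice of cohort 7 thus lay below the median mouse of cohort 1, and 1 mouse of cohort 1 lay below the median mouse of cohort 7, although the ranges overlapped. Among the 20 lowest mice of the whole series for this identifier, 13 came from cohort 7 and 1 from cohort 1. Among the 20 highest, 7 came from cohort 1 and 0 from cohort 7. The batch-adjusted difference was -1.65 ± 0.271 (SE, limma adjusted p = 2.87e-05). It was the only one of the 4 still called with strain-number block as a covariate, at -2 ± 0.417 (SE, limma adjusted p = 0.029).

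ENSMUSG00000065517 was also lower in cohort 7. Its scores ran from -1.08 over a median of 0.927 to 2.49 in cohort 1 and from -2.49 over a median of -0.746 to 1.95 in cohort 7. The cohort 7 mouse was the lower one in 88.8% of pairs, and 36 of the 37 mice of cohort 7 lay below the median of cohort 1. The single mouse of cohort 7 above that median reached 1.95, so the ranges overlapped widely. The difference was -1.60 ± 0.271 (SE, limma adjusted p = 3.66e-05). With strain-number block as a covariate it was -1.79 ± 0.417 (SE, limma adjusted p = 0.103). After removal of cohort and batch means, the scores of this identifier and of ENSMUSG00000065412 had a correlation of 0.559 over the 157 mice, which share the same arrays. Each of these identifiers had 2 genes at a correlation of 0.5 or more, of which 1 was the other identifier, and the remaining gene was also called lower. ENSMUSG00000027346 had 3 such genes, 2 of them called higher, and ENSMUSG00000026387 had 6, of which 3 were called higher. Over all genes, 0.997% were called higher and 2.5% lower. Genes that follow a called gene over the same mice tend to be called with it, so these counts are a description. How many such genes other identifiers had was not counted.

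ENSMUSG00000027346 was the gene most clearly higher in cohort 7. In cohort 1 its scores ran from -2.49 over a median of -0.744 to 1.31, and in cohort 7 from -1.06 over a median of 0.665 to 1.95. Of the 20 lowest mice of the series 7 were in cohort 1 and 0 in cohort 7, and the other 13 came from the cohorts outside the comparison. The high end was mixed, with 9 of the 20 highest mice in cohort 7 and 2 in cohort 1. The difference was 1.27 ± 0.271 (SE, limma adjusted p = 0.00257). It was not called without the second kill day of cohort 1, at 1.14 ± 0.357 (SE, limma adjusted p = 0.212), or with strain-number block as a covariate, at 1.39 ± 0.417 (SE, limma adjusted p = 0.176).

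ENSMUSG00000026387 was the other identifier higher in cohort 7, and its cohort 1 stood low in the whole series. Its scores ran from -2.49 over a median of -0.827 to 0.674 in cohort 1 and from -1.58 over a median of 0.315 to 1.70 in cohort 7. Of the 20 mice of cohort 1, 3 lay above 0, against 27 of the 37 mice of cohort 7. The 20 lowest mice of the series held 6 from cohort 1 and 4 from cohort 7, so low scores occurred on both sides. The difference was 1.26 ± 0.271 (SE, limma adjusted p = 0.00276). Without the second kill day of cohort 1 it was 1.07 ± 0.351 (SE, limma adjusted p = 0.241), and with strain-number block as a covariate 1.04 ± 0.417 (SE, limma adjusted p = 0.283).

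**Figure D2:**
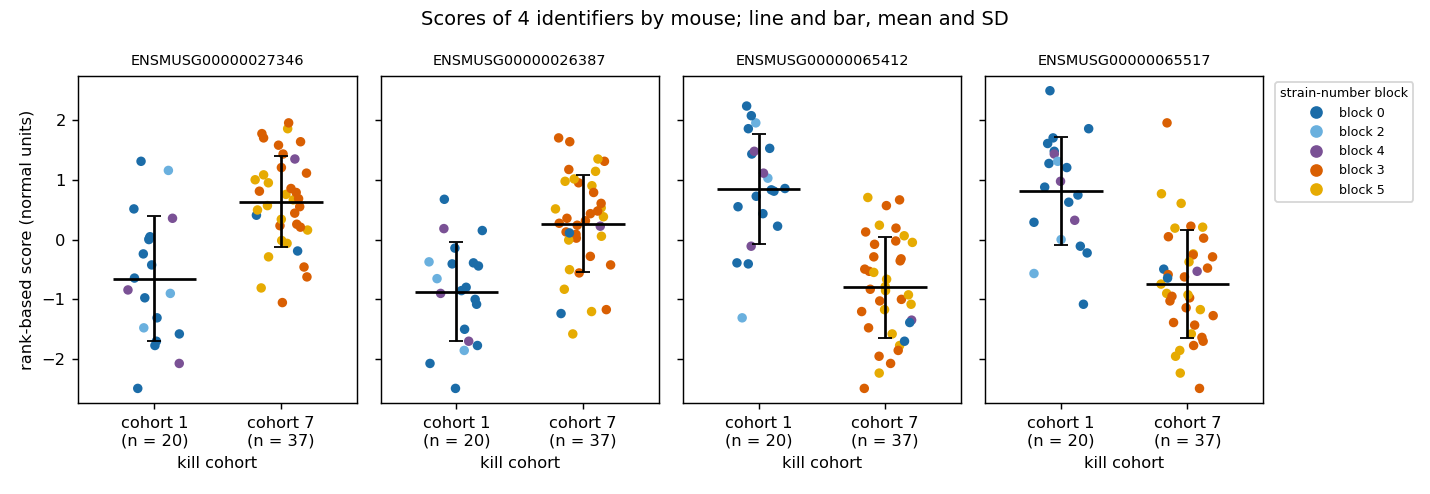
Score of each mouse for the 4 identifiers, in kill cohorts 1 (n = 20) and 7 (n = 37), with points coloured by strain-number block; lines and bars give the mean and SD over mice. For ENSMUSG00000065412 the means are 0.846 and -0.8, and mice of both cohorts share the range from -1.31 to 0.705.

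Within hybridization batches the 4 identifiers kept the direction of the pooled difference in all 7 batches that held both cohorts. Those batches held 2 to 5 mice of cohort 1 and 2 to 8 of cohort 7 each. The difference of means ran from -2.52 in batch 2 to -0.586 in batch 8 for ENSMUSG00000065412, and from -2.16 to -0.753 in the same batches for ENSMUSG00000065517. It ran from 0.229 in batch 7 to 2.50 in batch 2 for ENSMUSG00000027346, and from 0.661 in batch 7 to 1.73 in batch 2 for ENSMUSG00000026387. The direction was therefore shared, while the size varied several times over between batches with few mice each.

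The called genes showed the same within batches, as a description of the mice that chose them. Of the 231 genes called higher, 147 (63.6%) were higher in cohort 7 within each of the 7 batches, 73 in 6 and 11 in 5. Of the 579 called lower, 364 (62.9%) were lower within each of the 7, 34.0% in 6, 17 genes in 5 and 1 in 4. Batches 4 and 7 had the smallest differences. There the median of the genes called lower was -0.601 and -0.783, against -1.10 to -1.28 in the other 5 batches. The median of the genes called higher was 0.708 and 0.594 there, against 0.974 to 1.17. The median over all genes lay between -0.0699 and 0.205 in the 7 batches.

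Averaged over the called genes, each mouse had a mean score that followed its cohort. These averages come from the mice that chose the genes, so their separation is fixed by that choice and only its spread is informative. The mean over the 231 genes called higher ran from -1.05 to -0.221 in cohort 1 (median -0.552) and from -0.199 to 0.885 in cohort 7 (median 0.366). The mean over the 579 genes called lower ran from -0.0841 to 1.41 in cohort 1 (median 0.624) and from -0.875 to 0.0928 in cohort 7 (median -0.363). In the genes called lower, 1 mouse of cohort 1 and 7 mice of cohort 7 lay in the stretch where the cohorts met.

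**Figure D3:**
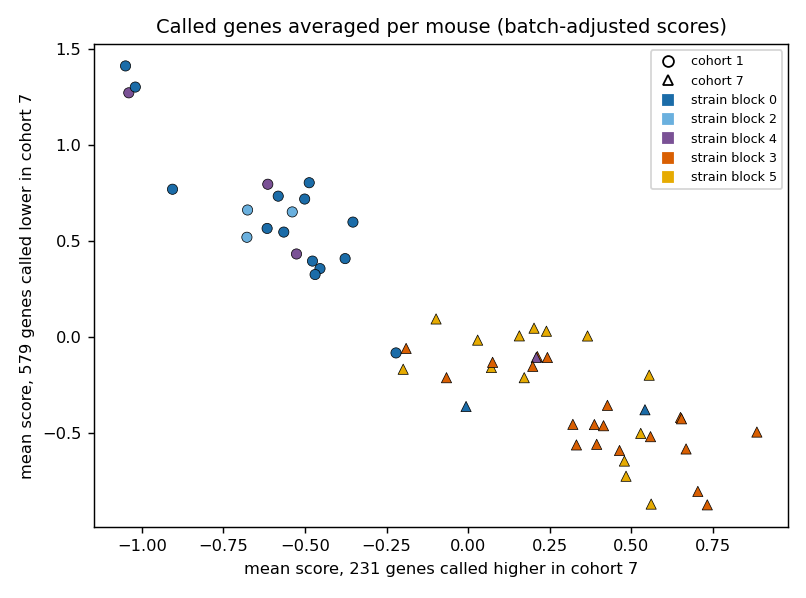
Mean batch-adjusted score per mouse over the 231 genes called higher (horizontal axis) and the 579 called lower (vertical axis); circles are cohort 1, triangles cohort 7, and colours strain-number blocks. The genes were chosen on these mice, and cohort 1 lies between -1.05 and -0.221 on the horizontal axis.

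Averaged over the called genes, the second day of each cohort lay farthest out. For the genes called lower, the mean over mice was 0.550 ± 0.374 (SD, n = 9) on day 0 and 0.746 ± 0.329 (SD, n = 11) on day 1. It was -0.191 ± 0.182 (SD, n = 9) on day 168, -0.430 ± 0.309 (SD, n = 14) on day 169 and -0.343 ± 0.251 (SD, n = 14) on day 170. Between days of a cohort these means differed by less than the larger SD of the days, and the days were not tested against each other. For the genes called higher the means on these days were -0.513, -0.685, 0.173, 0.471 and 0.300. There days 168 and 169 lay farther apart than the SD of either (0.206 and 0.268). Day 1 was the more extreme day of cohort 1 for 69.6% of the genes called lower and 70.1% of those called higher. Over all genes that share was 55.8% of those with a negative and 64.8% of those with a positive difference. Day 169 was the most extreme day of cohort 7 for 54.2% and 58.4% of the called genes, against 42.8% and 52.3% over all genes. The called genes were chosen on these mice, so these shares are a description. By single identifier, without batch adjustment, cohort 1 was mixed. The means on days 0 and 1 were 1.03 and 0.695 for ENSMUSG00000065412 and 1.09 and 0.586 for ENSMUSG00000065517. They were -0.506 and -0.772 for ENSMUSG00000027346 and -0.699 and -1.01 for ENSMUSG00000026387. In cohort 7 ENSMUSG00000027346 was farthest out on day 170, at 0.778, and the other identifiers on day 169.

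The strain blocks on each side were set side by side because they differ between the cohorts. Within cohort 1, the genes called lower had a mean of 0.630 ± 0.383 (SD, n = 14) in block 0, 0.609 ± 0.0794 (SD, n = 3) in block 2 and 0.833 ± 0.423 (SD, n = 3) in block 4. Within cohort 7 the mean was -0.417 ± 0.229 (SD, n = 20) in block 3 and -0.238 ± 0.318 (SD, n = 14) in block 5. The 2 mice of cohort 7 from block 0 had -0.380 and -0.363, and its mouse from block 4 had -0.108. Those 3 mice thus lay with the rest of cohort 7, and below all 17 mice of cohort 1 from the same blocks, which ran down to -0.0841. In the genes called higher, these 3 mice had -0.00629, 0.542 and 0.209, above all 20 mice of cohort 1. All 3 mice were among those that chose the genes, and a limma fit with blocks 0 and 4 alone called 0 genes. There 1153 genes lay under 0.05 before adjustment, and the median SE was 0.617.

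Single identifiers showed the same order with more scatter. For ENSMUSG00000065412 the 2 mice of cohort 7 from block 0 had -1.7 and -1.39 and the mouse from block 4 had -1.35, while the mice of cohort 1 ran from -0.408 to 2.24 in block 0 and from -0.111 to 1.48 in block 4. For ENSMUSG00000026387 the 2 mice from block 0 had -1.24 and 0.111, against a range from -2.49 to 0.674 in the 14 mice of cohort 1 from that block. In block 4 the mouse of cohort 7 had 0.224 for ENSMUSG00000026387, against -1.7 to 0.183 in the 3 mice of cohort 1. The cohorts therefore did not overlap within either block for ENSMUSG00000065412, and for ENSMUSG00000026387 they overlapped in block 0 and not in block 4.

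The large strain blocks of cohort 7 were not found to differ from each other. A limma test of block 3 against block 5 within cohort 7 (20 against 14 mice) called 0 genes (0%). Its smallest adjusted p was 0.975, and 1073 genes lay under 0.05 before adjustment. Least squares without moderation also called 0. Against the same 20 mice of cohort 1, block 3 gave 680 called genes (2.93%, with 207 higher and 473 lower) and block 5 gave 6 (0.0259%, with 0 higher and 6 lower). In that fit the other mice of cohort 7 stayed in as groups of their own. With those mice left out altogether, block 3 gave 551 genes and block 5 gave 17. The median difference in the genes called lower was -1.06 for block 3 and -0.875 for block 5, and in those called higher 1.01 and 0.845. Block 5 holds fewer mice, and a call in 1 block only is not a difference between the blocks.

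Each cohort was also set against the mean of the 8 cohorts outside the comparison (100 mice). There limma with batch as covariate called 41 genes for cohort 1 (0.177%, of which 36 stood higher there and 5 lower). For cohort 7 it called 8 (0.0345%, all lower). These tests share the mice of cohorts 1 and 7 with the main comparison, and the distances of the cohorts were not tested against each other. Of the 4 identifiers, 3 lay farther from the other cohorts in cohort 7 and 1 in cohort 1. For ENSMUSG00000065412 the distances were 0.741 for cohort 1 (limma adjusted p = 0.137) and -0.905 for cohort 7 (limma adjusted p = 0.0299). For ENSMUSG00000065517 they were 0.759 (limma adjusted p = 0.123) and -0.844 (limma adjusted p = 0.0411). For ENSMUSG00000027346 they were -0.526 (limma adjusted p = 0.317) and 0.741 (limma adjusted p = 0.131). For ENSMUSG00000026387 cohort 1 was the farther one, at -0.943 (limma adjusted p = 0.0502) against 0.314 (limma adjusted p = 0.626).

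In the 100 mice outside the comparison, the called genes lay between the 2 cohorts, but on average this position carries little information. The scores of each gene are centred on 0 over all mice of the series. The genes were chosen for a difference between cohorts 1 and 7, whose medians lay on opposite sides of 0. The average of the remaining mice is thereby held near 0, whereas its split over their cohorts is not. The median score over the 579 genes called lower was 0.652 in cohort 1 and then 0.0681, 0.351, 0.0614, 0.0176 and 0.148 in cohorts 2 to 6. It was -0.334 in cohort 7, and -0.215, -0.147 and -0.135 in cohorts 8 to 10. Cohorts 2 to 6 were all above 0 and cohorts 8 to 10 all below, and cohort 3 came nearest to cohort 1. Of the genes called lower, 431 (74.4%) were nearer to cohort 1 than to cohort 7 in cohort 3, against 218 (37.7%) in cohort 2 and 64 (11.1%) in cohort 8. The mice of cohorts 8 to 10 come largely from the strain blocks of cohort 7, so these cohorts do not part kill date from strain block either.

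The genes called higher did not show that order as clearly. Their median was -0.601 in cohort 1, between -0.113 and 0.0553 in cohorts 2 to 6, 0.334 in cohort 7, and -0.0228, 0.11 and 0.00686 in cohorts 8, 9 and 10. Cohort 1 was the lowest of all 10 cohorts for 161 of the 231 genes (69.7%), and cohort 7 the highest for 73 (31.6%). For the genes called lower, cohort 1 was the highest for 360 of 579 (62.2%) and cohort 7 the lowest for 161 (27.8%), followed by cohort 8 with 125 (21.6%). The genes were chosen for a difference between cohorts 1 and 7, and the mean of cohort 1 rests on fewer mice, so these shares are a description and do not rank the cohorts.

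**Figure D4:**
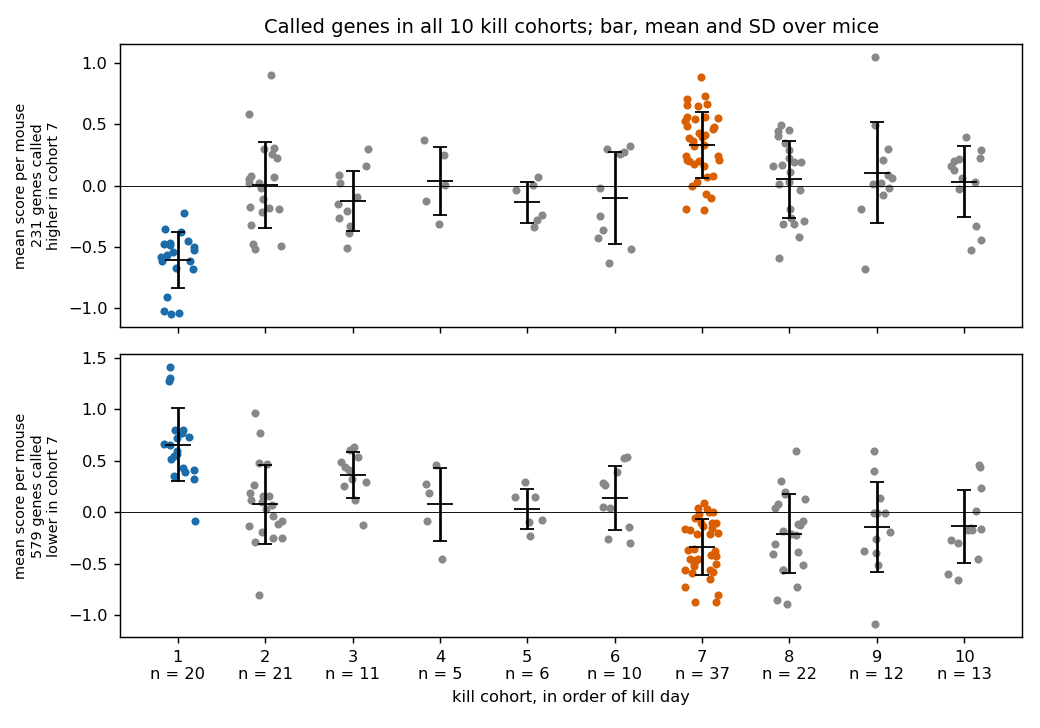
Mean batch-adjusted score per mouse over the genes called higher (top) and lower (bottom) in all 10 kill cohorts, with the mean and SD over mice; cohorts 1 and 7, on which the genes were chosen, are coloured. In the lower panel the cohort means fall from 0.657 in cohort 1 to -0.339 in cohort 7 and stand at -0.21, -0.142 and -0.138 in cohorts 8 to 10.

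For the 4 identifiers the other cohorts gave different courses. ENSMUSG00000065412 had a mean of 0.308 ± 0.838 in the 21 mice of cohort 2 and 0.411 ± 0.868 in the 22 mice of cohort 8 (SD). It was below 0 in the 12 mice of cohort 9, at -0.538 ± 0.569, and in the 13 of cohort 10, at -0.270 ± 0.712 (SD). ENSMUSG00000027346 was below 0 in each of cohorts 1 to 6, with means from -0.652 to -0.230, and above 0 in each of cohorts 7 to 10, with means from 0.123 to 0.631. ENSMUSG00000026387 was at -0.873 ± 0.828 (SD, n = 20) in cohort 1 and between -0.315 and 0.344 in the other 9. Its cohort 1 thus stood below the rest, whereas ENSMUSG00000027346 changed between the sixth and the seventh cohort, and ENSMUSG00000065412 was above 0 in cohort 8. Between neighbouring cohorts the means differed by more than either SD for ENSMUSG00000065412 from cohort 6 to 7, 7 to 8 and 8 to 9, for ENSMUSG00000027346 from 6 to 7 and for ENSMUSG00000026387 from 1 to 2. All other neighbouring means of the 4 identifiers differed by less than the larger SD of the pair.

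Once cohort and batch means were removed, pairs of genes called in the same direction reached high correlations more often than all gene pairs, though most correlations were small. Over the 157 mice, the median correlation was 0.146 within the genes called lower, 0.0799 within those called higher and -0.103 between them, against 0.00775 over all gene pairs. All pairs share the same arrays. A correlation of at least 0.5 in size was reached by 0.587% of the pairs within the genes called lower and 2.92% of those within the genes called higher, against 0.147% of all pairs. At least 0.7 in size was reached by 80 of 26565 pairs within the genes called higher and 19 of 167331 within those called lower. Over all genes it was reached by 2779 of 268551900 pairs. Joining genes at a correlation of 0.7 or more left 759 of the 810 called genes alone and put 51 into 8 groups. The share of all genes left alone in this way was not counted. The largest groups held 18 and 14 genes, all called higher, with median differences of 0.904 and 0.903. The next held 6 genes, all called lower, with differences from -1.31 to -0.949. Shared probe sequence between genes was not examined.

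Whole arrays did not stand apart by cohort. The median score of an array over all genes ran from -0.257 to 0.208 in cohort 1 and from -0.273 to 0.290 in cohort 7. The SD over genes of an array ran from 0.852 to 1.13 in cohort 1 and from 0.797 to 1.14 in cohort 7. These ranges overlapped almost fully.

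**Figure D5:**
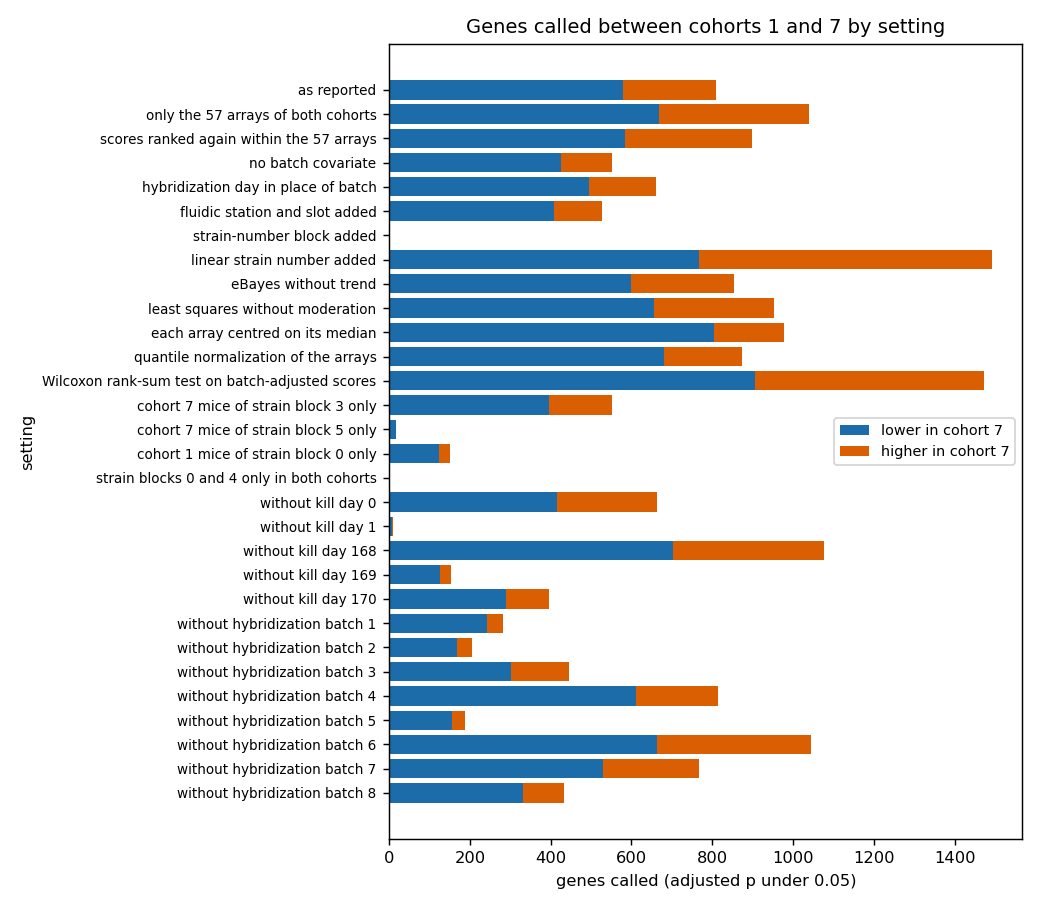
Genes called between cohorts 1 and 7 under each setting, split into lower (blue) and higher (orange) in cohort 7. The reported fit gives 810 genes; the smallest counts are 0 with strain blocks 0 and 4 alone, 3 with strain-number block as covariate, 10 without kill day 1 and 17 with strain block 5 of cohort 7 alone.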

How the data were processed

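Liver RNA was measured on Affymetrix whole-transcript arrays, 1 per mouse, per the labels' protocols. A custom chip definition (NCBI 37, Ensembl 49) grouped the probes by gene, per the series design text. The submitters' processing notes name RMA and affy without a version. In the deposited table the score of a gene equals, within 5e-05, the normal quantile of the mouse's rank among the 157, a step no label describes.

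Scores were fitted with limma 3.58.1 in R 4.3.3 over all 157 arrays, with kill cohort as group and hybridization batch as covariate (eBayes with trend, Benjamini-Hochberg adjustment over 23176 genes). Moderation replaced each gene's own spread by a nearly shared value. Each strain gave 1 mouse, so p-values mix strain, environment and array error, and the number of arrays limits the precision. The p-values rest on the spread between mice within cohorts. Each side is a single kill cohort, so variation from cohort to cohort is not in them. Mice killed on the same day were treated as independent. Descriptions used pandas 2.3.3, scipy 1.17.1 and numpy 2.4.6 in Python 3.11.15. In simulated data of 23176 independent genes with a chosen batch spread, cohort 7 alone was shifted in 100 genes at each size. For this contrast, 14, 33 and 85 of 100 genes changed by 0.75, 1 and 1.5 SD were recovered, with 5 false calls. Recovery depends on how many genes change, so these rates do not give the power of the fit to the data.

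The comparison, the gene lists and the tests were chosen with earlier results of these data known. As 0 identifiers were paired with a symbol, the 48 gene lists, the marker check and the counts by gene type and chromosome were not used here, and the rule for named genes (the 12 genes in each direction with the smallest p that have a symbol, members of the lists, and 12 fixed genes) was narrowed to the 2 identifiers in each direction with the smallest p.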

Additional observations from a re-analysis of the deposited data

Results flagged for a closer look

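Over 30 groups of 5 to 10 mice, 3 held 1 mouse far from the others, and chance gives about 1 in 20. For ENSMUSG00000065517, 1 mouse of cohort 5 had -1.31, and the next lowest of the 6 mice had -0.0317. For ENSMUSG00000027346, 1 mouse of cohort 6 had 1.03, and the next highest of the 10 mice had -0.0953. Both mice lie outside the comparison of cohorts 1 and 7. For the mean over the 231 genes called higher, 1 of the 9 mice killed on day 0 had -1.02, and the next lowest had -0.616.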

How the results depend on the processing

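Of 34 alternatives for the 810 genes between cohorts 1 and 7, 19 stayed within 1.5 times of that count. The others, by limma unless named, were 3 genes with strain-number block as a covariate, 1493 with linear strain number (725 higher and 768 lower) and 528 with fluidic station and slot. The Wilcoxon rank-sum test on batch-adjusted scores gave 1472. Its exact null distribution was used, which holds only approximately for scores adjusted on the same mice. Subsets of mice gave 17 with cohort 7 from strain block 5 alone, 152 with cohort 1 from block 0 alone and 0 with blocks 0 and 4 alone. Leaving out kill days 1, 169 and 170 gave 10, 153 and 397 genes, and leaving out batches 1, 2, 3, 5 and 8 gave 283, 206, 446, 187 and 434. Subsets hold fewer mice; otherwise the cause was not tested. Without each of the 5 mice of cohort 4 in turn, the smallest cohort in the fit, the count ranged from 797 to 840. These 5 fits are among the 19 and change no mouse of cohorts 1 and 7. The test of strain block 3 against 5 gave 0 genes in all 4 alternatives run.

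Of the 3 genes called with strain-number block as a covariate, 2 were among the 810. A count near 810 did not always hold the same genes. Without kill day 0, 431 of the 662 called genes were among the 810 with the same direction, and without batch 4, 600 of 815. With eBayes without trend, 810 of 854 were. The 4 identifiers kept their direction in all 34 alternatives. They were chosen for the smallest p on mostly the same mice, so this and the counts of calls are a description. Of the 34 alternatives, 5 left out only a mouse of cohort 4, outside the comparison. ENSMUSG00000065412 was called in 33 (limma or Wilcoxon adjusted p from 1.83e-06 to 0.639), ENSMUSG00000065517 in 32 (2.94e-06 to 0.896), ENSMUSG00000027346 in 30 (0.000891 to 0.956) and ENSMUSG00000026387 in 30 (0.000771 to 0.956). Alternatives for gene lists were not run, since they need symbols. No paired analysis was possible because the mice of the cohorts share no numbering in the labels.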
